A study of Arabidopsis thaliana with 12 samples.

Results

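The genes described here are APS3 (AT4G14680) and APS4 (AT5G43780), which encode ATP sulfurylases, and SIR (AT5G04590), which encodes sulfite reductase. They were chosen by name as genes of sulfate assimilation, with earlier results of these data known. Shares over all genes given beside counts of the 3 are therefore a description and no test. Each was read by 1 probe set, and they are 3 of the 13356 genes tested. Arabidopsis thaliana seedlings aged 14 days, grown on minimal medium, were the source of the RNA, which was read on single-colour Affymetrix arrays. Their genotype was either wild type, Col-0, or slim1-1, a recessive mutant allele of the transcription factor gene SLIM1. Those of both genotypes were placed either on 20 µM arsenite, As(III), or on 100 µM cadmium, so 4 groups of 3 biological replicates gave 12 arrays. All seedlings had thus received a metal, and no unexposed seedlings were analysed here. The labels describe 12 days without treatment and then 48 h on arsenite, in the same words for the cadmium samples, so the length of exposure to cadmium is not certain. The mutated gene itself was not analysed here, and the genotype labels were not checked against it.

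Sulfate taken up by a plant is inert until ATP sulfurylase joins it to ATP and so makes adenosine 5′-phosphosulfate. APS reductase turns this compound into sulfite, sulfite reductase turns sulfite into sulfide in the plastid, and sulfide is built into cysteine. Cysteine is the source of glutathione and of the phytochelatins that bind arsenite and cadmium. ATP sulfurylase belongs to a small gene family in Arabidopsis, whereas sulfite reductase is encoded by a single gene. APS3 and APS4 transcripts are known targets of the microRNA miR395, which rises in sulfur-starved plants under the control of SLIM1, and SIR is not among its known targets.

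The arsenite and the cadmium arrays did not share 1 normalization. Array medians over the genes tested lay between 6.39 and 6.48 on the log2 scale under arsenite and between 5.06 and 5.12 under cadmium. Under arsenite they were 6.39 to 6.43 in wild type and 6.45 to 6.48 in slim1-1. Under cadmium they were 5.06 to 5.07 in wild type and 5.10 to 5.12 in slim1-1. Subtracting the median, or shifting to a common median, therefore lowers the mutant values slightly against wild type. Genotype differences under 1 metal, and the difference between those differences, do not contain a shift shared by a metal's arrays. The lowest correlation between replicates of 1 group, across genes, was 0.992. Among the 12 leaf markers looked for, LHCB4.1 and RCA were measured, and both lay at a percentile of 99.9 or more among the genes under each metal. Of 8 root markers 4 were measured, and PYK10, a root beta-glucosidase gene, lay at a percentile of 99.8 under arsenite and 99.9 under cadmium. The others were PRX57 (92.9 and 66.7), EXPA7 (51.2 and 38.2) and EXPA18 (49.0 and 42.4). Under arsenite 0 of the 6 measured markers differed between genotypes in limma's test, and 0 had an unadjusted p under 0.05.

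APS4 fell in slim1-1 under arsenite, while APS3 fell under cadmium, so a different ATP sulfurylase gene was lower under each metal. SIR fell in the mutant under cadmium. The change of APS4 was to 0.652 times the wild-type level, that of APS3 to 0.601 times, and that of SIR to 0.765 times. For both ATP sulfurylase genes the genotype difference itself differed between the metals, in opposite directions, where 4.3% of all genes were called. For APS3 this call was lost when any 1 of 8 arrays was left out. In bulk seedlings, fewer cells of a type and less RNA per cell cannot be told apart.

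Under arsenite, APS4 stood at 10.70, 10.68 and 10.80 on the deposited log2 scale in wild type, replicates 1 to 3. In slim1-1 the same replicates gave 9.88, 10.14 and 10.30. Every mutant array lay below every wild-type array, with a gap of 0.38 between the groups, and the mutant arrays were spread more widely (SD 0.21 against 0.06, n = 3 each). The fitted difference was -0.62 ± 0.11 in log2 units (SE, 3 arrays of each genotype, limma adjusted p = 0.0181). Its 95% interval ran from 0.555 to 0.766 times the wild-type level. Only 96 of the 13356 genes had a difference as low or lower, which is 0.719% of them. The call was lost without mutant replicate 2 (adjusted p = 0.0582), without wild-type replicate 2 (0.0638) or 3 (0.0636), and in a fit of the 6 arsenite arrays by themselves (0.109).

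APS3 gave 9.30, 9.10 and 9.09 in wild type under arsenite and 9.29, 9.48 and 9.15 in the mutant. The groups overlapped, and the mutant held both the highest array and values within the wild-type range. The difference was 0.14 ± 0.15 (adjusted p = 0.769), with a 95% interval from -0.18 to 0.47, so a change of the size seen for APS4 in the downward direction lay outside the interval. The value was 0.06 without mutant replicate 2, 0.22 without mutant replicate 3, 0.09 with a common median and 0.24 with array weights. SIR gave 10.49, 10.70 and 10.48 in wild type and 10.21, 10.50 and 10.49 in the mutant. Mutant replicate 1 was the lowest array and the others lay among or close to the wild-type arrays. The SIR difference of -0.16 ± 0.09 did not pass (adjusted p = 0.496, 95% interval -0.35 to 0.03). Leaving out mutant replicate 1 gave -0.06, leaving out wild-type replicate 2 gave -0.09, and array weights gave -0.10.

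Thus 1 of the 3 genes was called under arsenite, and it was lower. Over all genes tested 1.05% were called in this comparison, and 0.591% were called as lower. These shares rest on 61 higher and 79 lower genes, which became 42 and 152 when the arrays were shifted to a common median. Non-overlapping groups, as seen for APS4, were found for 18.2% of all genes. The median difference over all genes was 0.01.

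**Figure D1:**
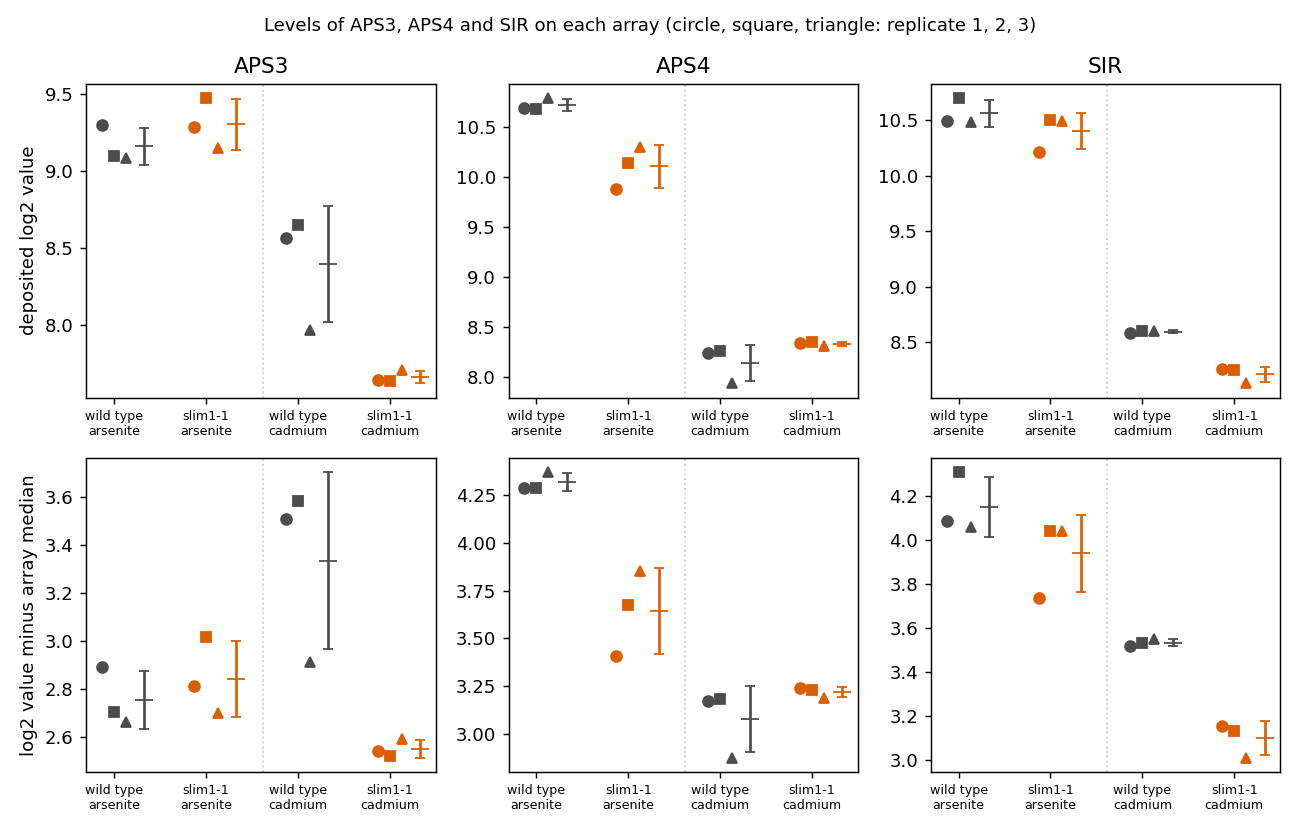
Values of APS3, APS4 and SIR on each of the 12 arrays, as deposited log2 values (upper row) and after subtraction of each array's median over the genes tested (lower row). Points are arrays, the horizontal dash with bars is the mean ± SD of 3 arrays, and the dotted line parts the arsenite from the cadmium arrays; the y axes differ between panels. APS4 is separated by genotype under arsenite, and SIR and APS3 are separated under cadmium, where wild-type replicate 3 lies apart from its group for APS3 and APS4. APS4 also parts under cadmium, by a gap of only 0.05 in the upper row and less in the lower. SIR parts narrowly under arsenite in the lower row only.

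Under cadmium the lower ATP sulfurylase gene was APS3. It gave 8.57, 8.65 and 7.97 in wild type and 7.64, 7.63 and 7.71 in slim1-1. All mutant arrays lay within 0.08 of each other and below all wild-type arrays, of which replicate 3 was far lower than the others. APS3 was lower in the mutant by -0.73 ± 0.15 (adjusted p = 0.00771), and the 95% interval was 0.480 to 0.752 times the wild-type level. Only 126 genes, or 0.943%, had a difference as low. The call held in every fit that left out 1 array (adjusted p at most 0.0386). Without wild-type replicate 3 the difference was -0.95 (adjusted p = 0.000325).

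APS4 gave 8.24, 8.25 and 7.93 in wild type under cadmium and 8.34, 8.34 and 8.31 in the mutant. The mutant arrays lay above the wild-type arrays by a gap of only 0.05, and wild-type replicate 3 was again the lowest. The difference of 0.19 ± 0.11 did not pass (adjusted p = 0.293). Its 95% interval, from 0.971 to 1.34 times the wild-type level, does not hold the fall seen under arsenite. Without wild-type replicate 3 the difference was 0.09 (adjusted p = 0.701).

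The sulfite reductase gene SIR gave 8.58, 8.60 and 8.60 in wild type and 8.25, 8.25 and 8.13 in slim1-1. The wild-type arrays had an SD of 0.01, the mutant arrays one of 0.07, and a gap of 0.33 lay between them. SIR fell by 0.39 ± 0.09 (adjusted p = 0.0144), with a 95% interval of 0.670 to 0.874 times the wild-type level. The largest adjusted p when 1 array was left out was 0.0487. Wild-type replicate 3, the low array for both ATP sulfurylase genes, was level with its group for SIR.

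In all, 2 of the 3 genes were called under cadmium, both lower, against 12.3% of all genes called in either direction and 5.71% called as lower. Those shares stand for 884 higher and 762 lower genes, or 652 and 1057 with a common median. The groups did not overlap for any of the 3 genes, which held for 31.2% of all genes. Some other measures moved with genotype under cadmium. Of the 4 measured root markers 3 had an unadjusted p under 0.05 in limma, all with higher values in the mutant. The share of all genes under that threshold is not given here, but 34.5% had an unadjusted limma p of 0.101 or lower under cadmium. The peroxidase gene PRX57 passed (0.90 ± 0.22, adjusted p = 0.0194), while 2 expansin genes of root hairs did not, EXPA18 (0.50 ± 0.20, adjusted p = 0.138) and EXPA7 (0.41 ± 0.17, adjusted p = 0.139). PYK10, the root marker with the highest signal, changed little (0.09 ± 0.08, adjusted p = 0.488). The mean log2 value of the 4 was 6.34 to 6.69 in wild type and 6.78 to 7.12 in the mutant. Of the measured leaf markers 0 of 2 passed in limma (0 at an unadjusted p under 0.05), with means of 12.93 to 12.97 in wild type and 12.93 to 13.01 in the mutant. Under arsenite the root marker means overlapped (8.91 to 9.13 and 8.59 to 9.24), while those of the 2 leaf markers were 13.64 to 13.66 in wild type and 13.57 to 13.61 in the mutant. The probe set for 25S rRNA, a control, gave lower values for all mutant arrays under cadmium (-0.68, exact permutation p = 0.1, two-sided, the smallest possible with 3 against 3). It overlapped under arsenite (-0.37, exact permutation p = 0.4). The 3′ minus 5′ difference of control genes, which reflects RNA integrity, was measured with 6 pairs of probe sets. It was higher on all mutant arrays for 2 pairs under cadmium and 2 under arsenite, and lower on all for 0 and 1, with mean changes from -0.14 to 0.25. The part of these measures in the results was not tested.

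**Figure D2:**
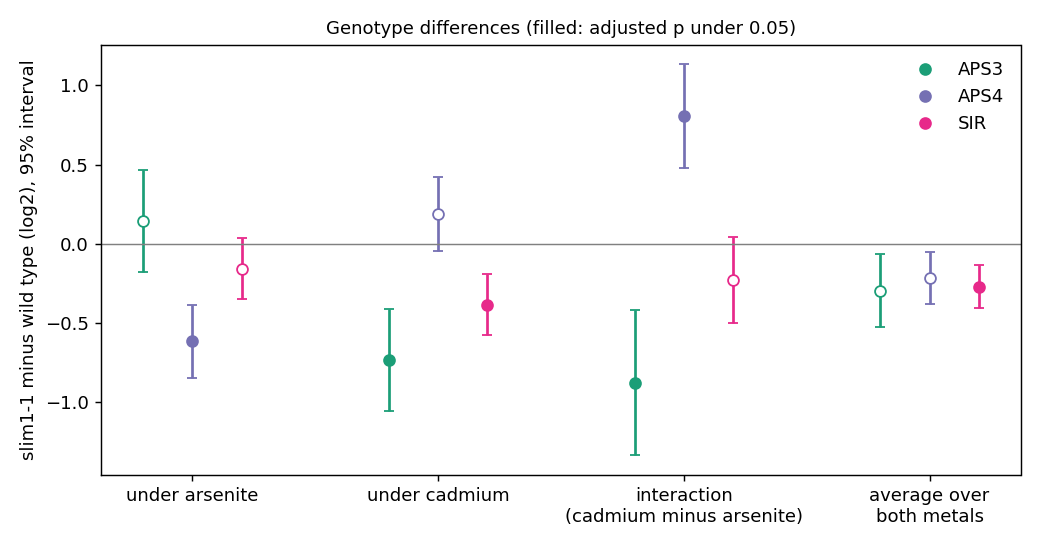
Differences between slim1-1 and wild type on the log2 scale for the 3 genes, with 95% intervals from the limma fit over 12 arrays. Filled points passed an adjusted p of 0.05. APS4 is low under arsenite (-0.62), APS3 (-0.73) and SIR (-0.39) are low under cadmium, and the interactions of APS3 (-0.88) and APS4 (0.81) lie on opposite sides of 0.

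The next question was whether the genotype difference changed with the metal. The interaction, which is the difference under cadmium minus that under arsenite, was 0.81 ± 0.15 for APS4 (log2, SE, 12 arrays in 4 groups, limma adjusted p = 0.0122). This call held in every alternative tried, with adjusted p between 0.00285 and 0.0341. For APS3 the interaction was -0.88 ± 0.21 (adjusted p = 0.0363). That call was less firm. Leaving out any 1 of 8 arrays ended it (adjusted p 0.055 to 0.0951). These were mutant replicate 2 and wild-type replicates 2 and 3 under arsenite, and mutant replicates 1 to 3 and wild-type replicates 1 and 2 under cadmium. Without wild-type cadmium replicate 3, by contrast, the value was -1.09 (adjusted p = 0.00189). SIR had an interaction of -0.23 ± 0.13 that did not pass (adjusted p = 0.367). Its 95% interval from -0.50 to 0.04 includes both no difference between metals and one larger than the fall of SIR under cadmium. So 2 of 3 genes passed, 1 in each direction, where 4.3% of all genes did, 2.19% higher and 2.1% lower. Metal, dose and set of arrays cannot be told apart, since each metal had 1 dose and its own set.

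**Figure D3:**
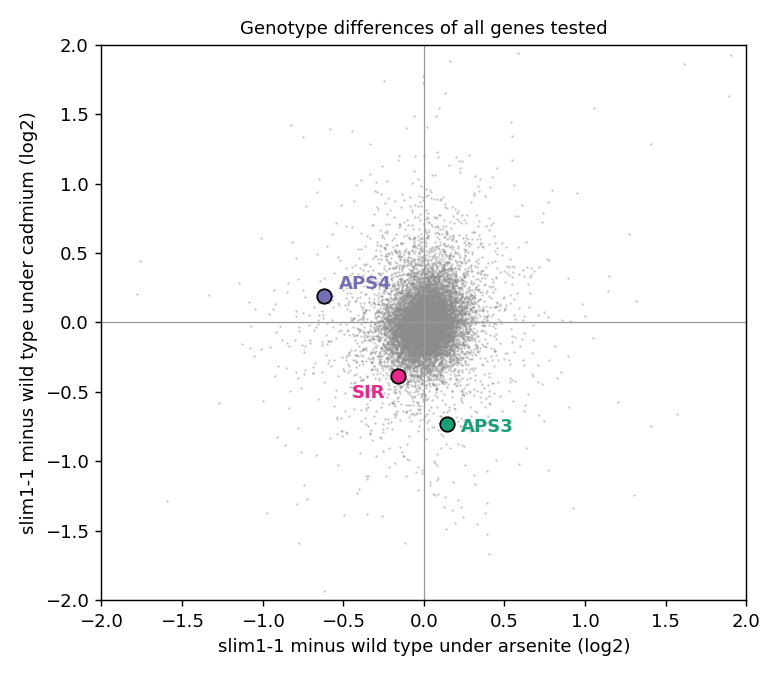
Difference between slim1-1 and wild type under arsenite (x axis, log2) and under cadmium (y axis, log2), with a grey point for each gene tested and the 3 sulfate assimilation genes in colour; 13 genes lie beyond 2 log2 units and are outside the frame. APS4 lies left of the dense cloud and slightly above 0 under cadmium, APS3 lies below the cloud and slightly above 0 under arsenite, and SIR lies below 0 on both axes.

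Averaged over both metals, SIR was lower in slim1-1 by -0.27 ± 0.06 (adjusted p = 0.0202, 95% interval 0.754 to 0.910 times wild type). Without wild-type arsenite replicate 2 the call was narrowly lost (-0.24, adjusted p = 0.0504). The averages of APS3 (-0.30 ± 0.11, adjusted p = 0.109) and APS4 (-0.21 ± 0.08, adjusted p = 0.108) did not pass, and each joins a fall under 1 metal with a small opposite value under the other. That of APS3 passed without wild-type cadmium replicate 3 (-0.40, adjusted p = 0.00654). That of APS4 passed with a common median (-0.26, adjusted p = 0.0473), with array weights (-0.21, adjusted p = 0.0365), without mutant arsenite replicate 3 (-0.26, adjusted p = 0.042) and without wild-type cadmium replicate 3 (-0.27, adjusted p = 0.0495). In this comparison 8.12% of all genes were called and 3.7% were called as lower, from 591 higher and 494 lower genes (351 and 1017 with a common median).

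Whether 2 of the genes differed from each other in their response was tested on their log2 difference within each array, which is free of array scaling. The level of this difference has no meaning between probe sets, but its change does. APS3 minus APS4 was -1.71 to -1.40 in wild type and -1.15 to -0.59 in slim1-1 under arsenite, a change of 0.76. Under cadmium it was 0.03 to 0.40 in wild type and -0.71 to -0.60 in the mutant, a change of -0.92. The genotypes did not overlap under either metal and moved in opposite directions. Each change is the difference between the changes of the 2 genes given above. How often other pairs of genes part in this way was not counted. Within 1 metal the exact permutation p was 0.1 each, two-sided, the smallest possible with 3 against 3 (0.129 adjusted over the 9 comparisons made, 3 pairs under each metal and in the interaction). The interaction of this ratio was -1.68 (exact permutation p = 0.005, two-sided, adjusted p = 0.0225 over the 9). That p is the smallest that the 400 relabellings of genotype within metals allow. The relabellings shuffle genotype under both metals at once, so their null is no genotype difference of the ratio under either metal. Groups that part in opposite directions under the metals reach this p of themselves, so it is no separate test of the interaction. When 1 array was left out the interaction lay between -1.86 and -1.58.

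APS4 also parted from SIR. APS4 minus SIR was -0.02 to 0.31 in wild type and -0.36 to -0.19 in the mutant under arsenite, and -0.67 to -0.35 in wild type and 0.09 to 0.18 in the mutant under cadmium. The changes of -0.46 and 0.58 each had an exact permutation p of 0.1 (0.129 adjusted). Their interaction of 1.03 had an exact permutation p of 0.005 (adjusted p = 0.0225), again from relabelling under both metals at once and with the same limit. APS3 and SIR were not separated in this way. The change of APS3 minus SIR was 0.30 under arsenite (exact permutation p = 0.2, adjusted p = 0.225) and -0.35 under cadmium (exact permutation p = 0.4, adjusted p = 0.4). The arsenite value was 0.20 without wild-type replicate 2. The cadmium value was -0.22 when wild-type replicate 2 was left out and -0.57 when replicate 3 was. Its interaction was -0.65 (exact permutation p = 0.05, adjusted p = 0.129), and -0.87 with an adjusted exact permutation p of 0.045 without wild-type cadmium replicate 3.

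**Figure D4:**
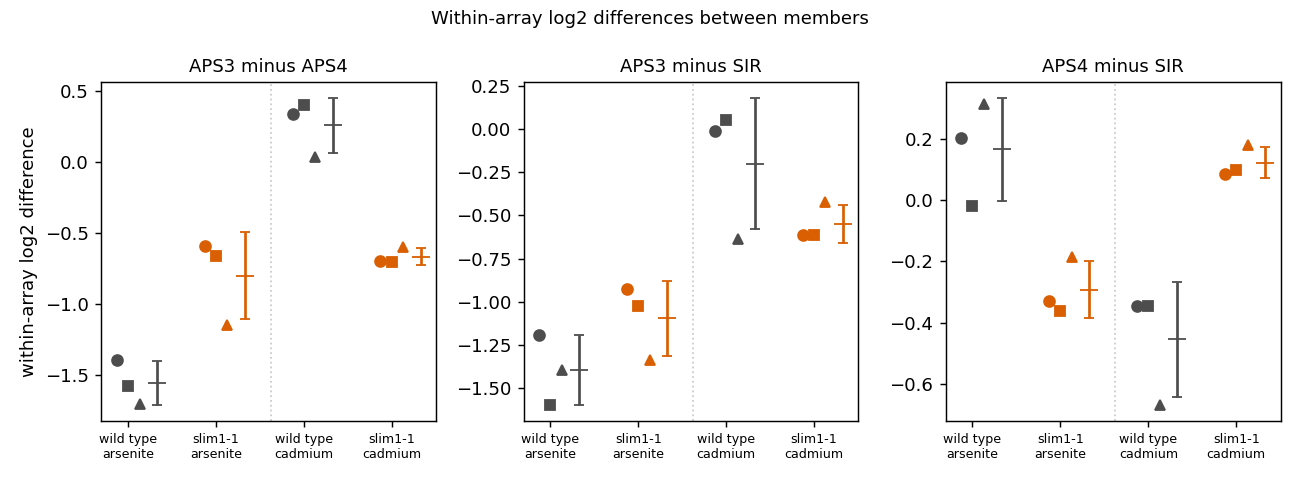
Log2 value of one gene minus that of another on the same array, for the 3 pairs; points are arrays (circle, square and triangle for replicates 1, 2 and 3), the dash with bars is the mean ± SD of 3 arrays, and the dotted line parts the metals. For APS3 minus APS4 the mutant lies above wild type under arsenite (0.76) and below it under cadmium (-0.92), and for APS4 minus SIR the order is the reverse (-0.46 and 0.58).

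The order of the 4 groups can be described only on a scale relative to the arrays, here the log2 value minus the array's median. For APS3 the order was wild type under cadmium (3.33 ± 0.37, SD, n = 3), slim1-1 under arsenite (2.84 ± 0.16), wild type under arsenite (2.75 ± 0.12) and slim1-1 under cadmium (2.55 ± 0.04). The first 3 groups overlapped with their neighbours in that order, while all arrays of the last lay below all others. For APS4 the order was wild type under arsenite (4.31 ± 0.05), slim1-1 under arsenite (3.65 ± 0.22), slim1-1 under cadmium (3.22 ± 0.03) and wild type under cadmium (3.08 ± 0.17), and no neighbours overlapped, though the last pair parted by very little. SIR ran from wild type under arsenite (4.15 ± 0.14) through slim1-1 under arsenite (3.94 ± 0.17) and wild type under cadmium (3.53 ± 0.01) to slim1-1 under cadmium (3.10 ± 0.08). No neighbours overlapped on this scale, but the first pair nearly met, with mutant arrays from 3.74 to 4.04 and wild-type arrays from 4.06 to 4.31, and it did overlap on the deposited scale.

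The probe sets of all 3 genes gave signals in the upper part of each array's range. The percentile among the genes of an arsenite array was 86.1 to 89.7 for APS3, 92.5 to 96.5 for APS4 and 94.3 to 96.2 for SIR. On cadmium arrays the ranges were 83.4 to 92.3 for APS3, 86.5 to 90.1 for APS4 and 88.3 to 92.0 for SIR. From arsenite to cadmium, relative to the array median, wild-type APS3 differed by 0.58 and wild-type APS4 by -1.24, while in the mutant the values were -0.29 and -0.43. SIR differed by -0.62 in wild type and -0.84 in the mutant. After quantile normalization over the 12 arrays these were 0.43, -1.38, -0.45, -0.62, -0.76 and -1.03 in the same order, with every sign kept. They are descriptions, because metal and array set cannot be told apart.

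Of 46 genes listed for sulfate uptake, assimilation, glutathione synthesis and sulfur starvation, 5 were measured, and the other 41 were not analysed here. They include the APS reductases, the sulfate transporters and the other ATP sulfurylases. Beside the 3 genes above these are SDI2, which rises in sulfur starvation and represses the making of glucosinolates, and BGLU28, a beta-glucosidase gene induced by sulfur starvation. Under arsenite 1 of the 5 rose (SDI2, 1.89 ± 0.16, adjusted p = 0.000352) and 1 fell (APS4), where 1.05% of all genes were called and 0.591% were called as lower. Under cadmium SDI2 rose by 1.63 ± 0.16 (adjusted p = 5.29e-05), and 3 fell, namely APS3, SIR and BGLU28 (-2.90 ± 0.25, adjusted p = 2.88e-05), where 12.3% of all genes were called and 5.71% were called as lower. Of all 13356 genes, 61 were called as higher under arsenite and 884 under cadmium. The median difference of the 5 was the value of APS3 under arsenite (0.14) and that of SIR under cadmium (-0.39), so it is no separate result. Over all genes the medians were 0.01 and -0.01. BGLU28 was like APS3 in its fall under cadmium, with an interaction of -3.58 ± 0.36 (adjusted p = 0.000347). Under arsenite its value was above 0 without passing (0.68 ± 0.25, adjusted p = 0.268), as was that of APS3. Its signal there lay at a percentile of 33.8 among the genes, against 87.8 for APS3. SDI2 showed no interaction that passed (-0.27 ± 0.22, adjusted p = 0.59).

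The genes whose values ran most alike to each of the 3 were found by Pearson correlation over the 12 arrays after subtraction of each metal's mean, among 9633 genes above the lower quartile under both metals. The arrays share the genotype groups, so these coefficients are descriptions. For APS3 they were AT3G08670 (r = 0.939), NAI1 (r = 0.936), which encodes a transcription factor needed for endoplasmic reticulum bodies, and AT1G77220 (r = 0.921). Within the arsenite arrays these 3 gave r of 0.977, 0.700 and 0.390 in the same order. Within the cadmium arrays r was 0.937, 0.986 and 0.963. NAI1 fell under cadmium by 0.39 ± 0.10 (adjusted p = 0.0243) and gave -0.03 under arsenite (adjusted p = 0.944). For APS4 they were AT1G69800 (r = 0.943), AT4G32590 (r = 0.909) and AT2G04039 (r = 0.902). The last had -0.41 ± 0.09 under arsenite without passing (adjusted p = 0.0545). In order, the 3 genes alike to APS4 gave r of 0.987, 0.974 and 0.930 within the arsenite arrays. Within the cadmium arrays r was 0.715, 0.509 and 0.838. For SIR they were AT1G49650 (r = 0.933), AT3G50790 (r = 0.932) and TROL (r = 0.932), which encodes a rhodanese-like protein of the thylakoid. TROL fell under cadmium by 0.25 ± 0.07 (adjusted p = 0.0456) and gave -0.15 under arsenite (adjusted p = 0.414). Among the 3 genes themselves the coefficients on this scale were 0.57 for APS3 and SIR, 0.17 for APS4 and SIR, and -0.24 for APS3 and APS4 (n = 12). With each group's mean removed, APS3 and APS4 gave 0.43, APS4 and SIR 0.43, and APS3 and SIR -0.09.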

How the data were processed

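The authors deposited log2 values, made with RMA per the submitters' processing notes. RMA corrects background, normalizes by quantiles and summarises probe sets, and no version or options are stated. Control probe sets (64) were left out. Of the rest, 13513 were listed with 1 gene, 503 with several and 8730 were not listed. For a gene with several probe sets the one with the highest mean was kept, which left 13356 genes, 13286 of them matched to RefSeq (assembly TAIR10.1).

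A mean for each of 4 groups was fitted over all 12 arrays by lmFit and eBayes of limma 3.58.1 (R 4.3.3). Tests were two-sided, with Benjamini-Hochberg adjustment over all genes and a threshold of 0.05. Contrasts were the genotype difference under each metal, the interaction and the average. The number of arrays limits the precision (median SE of a genotype difference 0.0914). Within-array ratios and control probe sets were tested by exact permutation. For the interaction of a ratio, genotype was permuted within both metals at once. The 3 genes and the gene lists were chosen with earlier results of these data known. Named were these 3, the measured genes of the lists, and for each of the 3 genes the 3 most alike. Chromosomal neighbours were added after the data were seen. The fit was tested on simulated data. Alternatives were other normalizations, fits, filters and arrays left out. No sequences or coordinates are given.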

Additional observations from a re-analysis of the deposited data

Results flagged for a closer look

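The genotype difference of 2 genes differed between the metals in a test of that difference. For APS4 it was higher under cadmium than under arsenite by 0.81 on the log2 scale (limma adjusted p = 0.0122), and for APS3 it was -0.88 (adjusted p = 0.0363). The APS3 call was lost when any 1 of 8 arrays was left out (adjusted p up to 0.0951). The direction was opposite for these members of 1 enzyme family. The cause was not tested.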

How the results depend on the processing

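The direction of APS3, APS4 and SIR in each contrast, and of each ratio, was kept in all alternatives run. APS4 under arsenite kept its value (-0.62) but not its call in a fit of the 6 arsenite arrays by themselves (adjusted p = 0.109), and lay between -0.71 and -0.50 when 1 array was left out. No pairing by replicate number showed in the values, though how the samples were handled cannot be read from them. Same-numbered arrays of both genotypes deviated together with r from -0.33 to 0.10, over 0.1 for 0 of 6 pairs. Arrays of unlike number gave r from -0.14 to 0.34, both extremes under arsenite. With the replicate block the APS3 interaction kept its value of -0.88 and missed the threshold (adjusted p = 0.0803), and no other call of the 3 genes changed; the counts of genes called became 85 under arsenite, 1019 under cadmium, 267 for the interaction and 626 for the average. When 1 array was left out, the APS3 interaction lay between -1.09 and -0.75, and that of the APS3 and SIR ratio between -0.87 and -0.52. The averages over metals lay between -0.40 and -0.23 for APS3, -0.27 and -0.16 for APS4, and -0.30 and -0.22 for SIR. The APS4 average was called with a common median (-0.26) and with array weights (-0.21).

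Counts over all genes moved more. Testing all probe sets other than controls called 296 probe sets under arsenite, 3227 under cadmium, 1179 for the interaction and 2169 for the average. These are out of a larger number than the 13356 genes, so they cannot be set directly against the counts of genes. Array weights gave 744 under arsenite, 1184 for the interaction and 2068 for the average. The 6 arsenite arrays by themselves gave 14. With 1 array left out the arsenite count (140 of 13356) lay between 50 and 250 (250 without mutant replicate 1, 58 without mutant replicate 2, 50 and 88 without wild-type replicate 2 and 3). The cadmium count (1646) lay between 851 and 1794 (851 without mutant replicate 2, 958 and 966 without wild-type replicate 1 and 3). The interaction count (574) lay between 280 and 785, and the average count (1085) between 644 and 1174. The arrays that moved the interaction count by over 1.5 times were, under arsenite, mutant replicate 2 (329) and wild-type replicates 2 (281) and 3 (334), and under cadmium mutant replicate 2 (311) and wild-type replicates 1 (280) and 3 (348). Those for the average were wild-type arsenite replicates 1 (705) and 2 (707), mutant cadmium replicate 2 (644) and wild-type cadmium replicate 1 (676). Unless stated, the cause was not tested. The values hold no detection calls, so signal over background could not be checked.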

Other observations

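Neighbours of the genes along the chromosome, by RefSeq order, gave small values. AT5G43770, which overlaps APS4 in the annotation, differed by 0.09 under arsenite (limma adjusted p = 0.833) and by 0.08 under cadmium (adjusted p = 0.722). AT5G43790, on the other side of APS4, gave 0.12 (adjusted p = 0.56) and 0.13 (adjusted p = 0.32). Beside SIR lie DME, a DNA glycosylase gene that removes methylated cytosine, with -0.04 (adjusted p = 0.923) and 0.09 (adjusted p = 0.628), and AT5G04600 with -0.06 (adjusted p = 0.817) and -0.11 (adjusted p = 0.391). AT4G14675, which overlaps APS3 in the annotation, and ELIP2 on its other side were not analysed here.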
